A study of Mus musculus with 6 samples.

Results

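The FRS adaptors, the ErbB receptors and the adaptors that carry their signal were followed as 10 genes: Frs3, Frs2, Egfr, Erbb2, Erbb3, Erbb4, Grb2, Shc1, Gab1 and Ptpn11. They were chosen by name, and all array probes whose RefSeq accession belongs to them were taken, which gave 13 of 55681 distinct probes and 10 of 20660 genes with a probe. The samples were spheres, floating clusters of cells, grown from mouse mammary tumors. One group came from FRS2beta knock-out mice (knockout, 3 arrays) and the other from FRS2beta hetero mice (hetero, 3 arrays), so that both groups carried a disrupted Frs3 allele, Frs3 being the gene of FRS2beta, and no wild-type sample entered the comparison. Both groups were grown in DMEM/F12 supplemented with B27, heparin (2 mg/mL), EGF and bFGF (20 ng/mL each), so the medium itself supplied a ligand of EGFR and of FGF receptors. The age and strain of the mice, how the tumors arose and whether animals were pooled are not stated in the labels. Nothing states that the replicates were separate animals, tumors or cultures, so the p-values measure only how these 3 and 3 samples scatter, and that scatter may be technical.

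FRS2alpha (Frs2) and FRS2beta (Frs3) are membrane-anchored docking proteins with a phosphotyrosine-binding domain. On activated FGF receptors FRS2alpha is phosphorylated and recruits GRB2 and the phosphatase SHP2, encoded by Ptpn11, which pass the signal to RAS and ERK. FRS2beta has also been described to bind ErbB receptors and to restrain ERK signalling downstream of them. The ErbB family comprises EGFR, the ligand-less ERBB2, the kinase-impaired ERBB3, which signals in a pair with another member, and ERBB4. In the mammary gland EGFR acts in stroma and epithelium during ductal growth, and ERBB2 is a driver of mammary tumors.

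Signals are given as scaled log2 signal, the log2 processed signal minus the 75th percentile of that array, so that 0 is the 75th percentile. Pearson correlations over the genes ran from 0.995 to 0.998 within a genotype and from 0.966 to 0.971 between them. The groups differed in much of the transcriptome: at a Benjamini-Hochberg adjusted p of 0.05 by limma, 60.4% of 15834 genes were called different (27.8% higher in knockout spheres, 32.6% lower), and in 68.9% of genes the groups did not overlap. Luminal epithelial markers were higher in knockout spheres in 12 of 12 genes tested (median log2 fold change 3.49), with a mean scaled log2 signal of 2.24 to 2.26 over the list on knockout arrays and -1.35 to -1.32 on hetero arrays. Krt8 rose by 3.25, Krt7 by 3.65 and Krt19 by 4.08 on the log2 scale. Basal epithelial markers were higher in 7 of 9 and lower in 1 (median 2.01), with a list mean of 1.69 to 1.71 on knockout and 0.01 to 0.06 on hetero arrays. The basal keratin Krt14 rose by 2.97. Macrophage markers were lower in 9 of 9 (median -1.65), with a list mean of -0.64 to -0.55 on knockout and 0.97 to 0.99 on hetero arrays, and Lyz2 fell by 1.95. Fibroblast markers were lower in 7 of 10 and higher in 2 (median -0.53), with a list mean of 6.21 to 6.23 on knockout and 6.74 to 6.80 on hetero arrays, and Pdgfra fell by 1.32. No tested gene of these lists was below background on all arrays of a group. Endothelial markers were higher in 2 of 8 and lower in 4 (median -0.17, and 0.25 with spike-in scaling, described below), and adipocyte markers were lower in 3 of 5 (median -0.27, and 0.15 with spike-in scaling). With that scaling the fibroblast list had 3 higher and 5 lower genes, and the luminal list still 12 higher.

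Of the 10 genes, 8 had a probe well above background on at least 3 of the 6 arrays and were tested, and Frs3 and Erbb4 were not. Among the 8, 2 were called higher and 4 lower in knockout spheres. One of the 2, Erbb3, passed the filter through the knockout arrays alone, so the share called is not set against that of all genes. With the filter on all 6 arrays, which drops Erbb3, 6 members were called, 2 higher and 4 lower. At that setting 63.4% of all genes were called. Among all genes 10.1% passed with a fold of at least 2, and 1 of the 8 members, Erbb3, has a fitted fold above 2, which its bound of 1.24 does not reach. Egfr is represented here by its brightest probe, which was 1.61-fold lower. Another Egfr probe was 2.10-fold lower in the fit over all probes. In the fit over all probes 7 of 11 member probes were called, 2 higher and 5 lower, with the Erbb3 probe among the 2. Of all 35422 probes 47.0% were called (19.3% higher, 27.6% lower). The median log2 fold change of the members was -0.04 and that of all genes -0.03. The median size of the change, regardless of sign, was 0.21 for the 8 genes and 0.22 for all genes. Egfr was lower, and Erbb3 was well above background on knockout arrays only. The changes of Frs2, Grb2, Shc1 and Ptpn11 lay between -0.27 and 0.12 on the log2 scale. When arrays were scaled to 7 spike-in probes, which read control RNA normally added in a fixed amount before labelling, 0.42 was added to every log2 fold change and the median of all genes was 0.39. With this scaling 80.5% of all genes were called, against 60.4% with the 75th percentile. Of all calls, 90.1% were then higher and 9.89% lower, against 46.0% and 54.0% with the 75th percentile. Counts of calls given below with spike-in scaling carry this shift of all genes. Of the 8 genes 7 were then called higher and 1 lower, so directions below are relative to the 75th percentile unless stated.

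**Figure D1:**
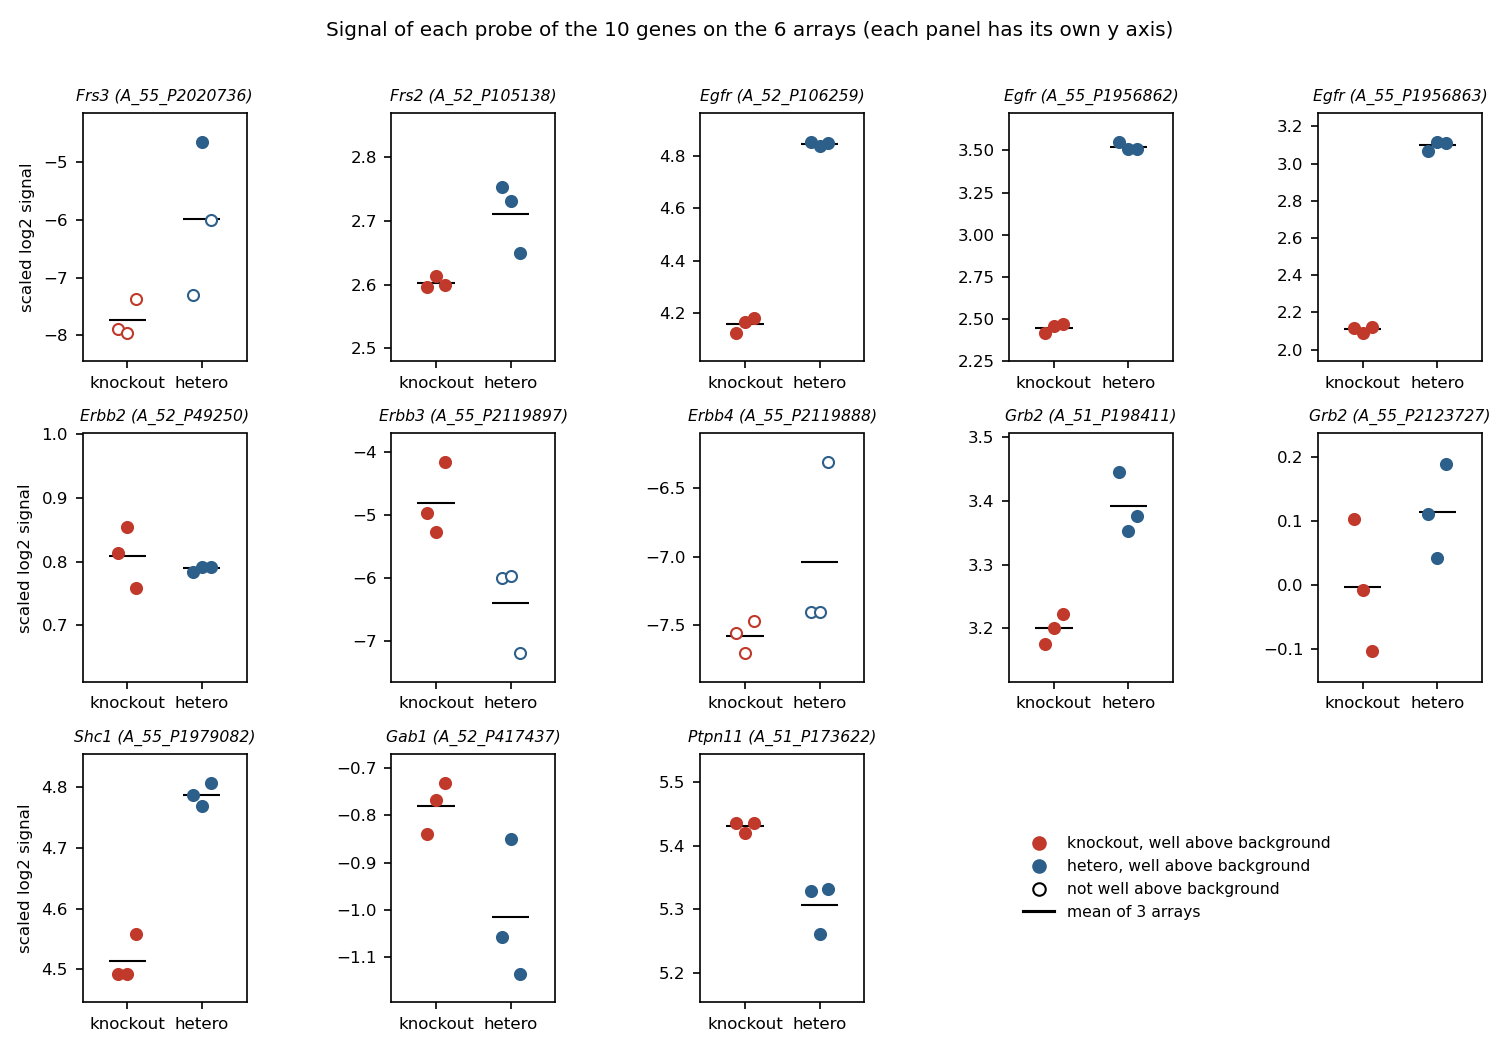
Scaled log2 signal (y axis, each panel on its own scale) of the 13 probes on the 3 knockout arrays (red, left) and 3 hetero arrays (blue, right). Open points were not well above background and bars are means. The 3 Egfr probes separate the genotypes widely, Erbb2 overlaps, Erbb3 is above background on knockout arrays only, and Frs3 and Erbb4 are near or below background.

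Frs3, the gene targeted in these mice, was at the edge of detection. Its single probe read a scaled log2 signal of -7.88, -7.95 and -7.36 on the knockout arrays. On the hetero arrays it read -7.30, -4.65 and -6.01. All 3 scaled knockout values lay below all 3 scaled hetero values, but only hetero replicate 2 was well above background. In linear units this array gave a processed signal of 16.1, against 1.97, 1.97 and 2.91 on the knockout arrays and 2.61 and 6.47 on the other hetero arrays. Before scaling the groups therefore overlapped, with knockout replicate 3 (2.91) above hetero replicate 1 (2.61). The means were -7.73 ± 0.32 in knockout and -5.99 ± 1.33 in hetero spheres (SD, n = 3 each). The difference of -1.75 had an exact two-sided permutation p of 0.1, the smallest that 3 against 3 arrays allow. It was -1.08 without hetero replicate 2, and -0.46 with normexp, a background correction that models the background and adds an offset of 50 before the log2. When dim probes were let into the fit its adjusted p was 0.103. No fold is given: on hetero arrays the dimmest probes well above background read -5.20 to -4.97, more than the hetero mean. The scaled direction runs with the labels, but the probe of Erbb4, below background on all arrays, separated the groups in the same direction (-0.53). A probe at this level does not check the genotype, and the place of the Frs3 probe relative to the deletion was not analysed here.

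Frs2, which encodes the paralog FRS2alpha, was clearly measured on all arrays. It had scaled log2 signals of 2.60, 2.61 and 2.60 in knockout spheres and 2.75, 2.73 and 2.65 in hetero spheres. The groups did not overlap. The log2 fold change was -0.11 ± 0.03 (SE, adjusted p = 0.035), 1.08-fold lower, with a 95% interval of -0.19 to -0.03. The call was lost under 10 of 16 alternative settings of the processing, among them 5 of the 6 fits that leave out 1 array, all but the one without hetero replicate 3 (adjusted p 0.0744 to 0.0934 in the 5). It was also lost in the fit over all probes (adjusted p = 0.0614), and with spike-in scaling the log2 fold change was 0.31. In 60.5% of all genes the log2 fold change was higher than that of Frs2.

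The 250 bases before the RefSeq transcription start are shown for both FRS genes, whose probes differed in detection, and for Egfr, which moved most among the well-measured members. They are taken from the RefSeq table for GRCm38.p6, 5′ to 3′ on the strand of the gene. Capitals mark GC boxes, the letters GGGCGG on either strand (CCGCCC), which may overlap.
Frs3, chr17:47694957-47695206, plus strand: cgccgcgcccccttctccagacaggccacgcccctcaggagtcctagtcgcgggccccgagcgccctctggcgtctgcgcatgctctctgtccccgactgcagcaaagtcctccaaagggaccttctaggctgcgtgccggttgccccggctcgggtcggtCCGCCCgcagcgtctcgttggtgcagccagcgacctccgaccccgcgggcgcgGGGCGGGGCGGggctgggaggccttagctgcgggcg
Frs2, chr10:117148475-117148724, minus strand: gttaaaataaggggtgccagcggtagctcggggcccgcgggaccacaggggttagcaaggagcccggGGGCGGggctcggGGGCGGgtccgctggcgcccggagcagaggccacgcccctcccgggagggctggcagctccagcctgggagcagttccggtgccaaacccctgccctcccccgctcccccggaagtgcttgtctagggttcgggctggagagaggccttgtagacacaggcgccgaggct
Egfr, chr11:16751953-16752202, plus strand: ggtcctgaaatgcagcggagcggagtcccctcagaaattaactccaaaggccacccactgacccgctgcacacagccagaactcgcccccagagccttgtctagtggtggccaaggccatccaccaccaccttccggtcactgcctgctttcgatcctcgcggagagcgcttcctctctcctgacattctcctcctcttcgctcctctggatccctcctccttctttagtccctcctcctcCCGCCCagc
Such a GC box was found in 7 of 12 windows of the members and in 32.7% of 32851 windows of all genes. Overlapping windows of Gab1 both count among the 7, and Erbb3 had no window. Counted by gene, 6 of the 9 members with a window had a GC box. A TATA box (TATAAA on either strand) was found in 1 of the 12 windows, for Grb2, and in 12.4% of all windows. The Frs3 window held 3 GC boxes, 30 CpG and 74.0% G or C, the Frs2 window 2 GC boxes, 19 CpG and 71.6%, and the Egfr window 1 GC box, 11 CpG and 60.8%. The median over all windows was 6 CpG and 52.4% G or C. These matches describe letters in a window and no binding was measured.

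Egfr was the member with the clearest change, and it was lower in knockout spheres. It is represented by 3 probes, 1 for transcript NM_207655, which encodes the full-length receptor, and 2 for NM_007912, which encodes a shorter form. The NM_207655 probe had scaled log2 signals of 4.12, 4.17 and 4.18 in knockout spheres and 4.85, 4.84 and 4.85 in hetero spheres. The groups did not overlap, and the pooled SD between arrays of a genotype was 0.022. The log2 fold change was -0.69 ± 0.02 (SE, adjusted p = 9.33e-06), or 1.61-fold lower, with a 95% interval of -0.75 to -0.63. Of all genes, 6.90% had a lower log2 fold change. This probe was printed 10 times on each array, which shows the precision within an array. Its processed signal ran from 7534 to 9281 over the spots of the 3 knockout arrays and from 11026 to 12789 over those of the 3 hetero arrays, with no overlap. The log2 SD between spots of an array was 0.046. In bulk RNA a smaller number of Egfr-expressing cells and less Egfr RNA per cell cannot be told apart. Beside it 7 of 10 fibroblast markers were lower and 2 higher (median -0.53, -0.28 with quantile and -0.11 with spike-in scaling). Epithelial markers were mostly higher. The part of fibroblast or epithelial markers in the Egfr difference was not tested.

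At both NM_007912 probes the fall was larger. The first read 2.42, 2.46 and 2.47 in knockout spheres against 3.55, 3.51 and 3.51 in hetero spheres, a log2 fold change of -1.07 ± 0.03 (SE, adjusted p = 1.18e-05 among 35422 probes). The second read 2.12, 2.09 and 2.12 against 3.07, 3.12 and 3.11, a log2 fold change of -0.99 ± 0.03 (adjusted p = 1.26e-05). These are 2.10-fold and 1.99-fold lower in knockout spheres. The fall at the NM_207655 probe was smaller by 0.39 and 0.30 on the log2 scale. The within-array differences did not overlap between genotypes for either pair, with an exact permutation p of 0.1 each, the smallest possible, or 0.133 after adjustment over the 4 pairs of probes compared. The probes for NM_007912, which read the same transcript, differed by -0.08 (exact permutation p of 0.1, adjusted 0.133). The array's probe sequences were not used here, so which exons each probe reads is not stated. Egfr stayed lower under all 16 alternatives, from -0.92 when its probes were averaged to -0.27 with spike-in scaling (adjusted p at most 0.00105).

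Erbb2 showed no difference that passed the test. Its scaled log2 signals were 0.81, 0.85 and 0.76 in knockout spheres and 0.78, 0.79 and 0.79 in hetero spheres. The groups overlapped, and the 3 hetero arrays fell within the range of the knockout arrays. The log2 fold change was 0.02 ± 0.03 (SE, adjusted p = 0.625), with a 95% interval of -0.06 to 0.10. Erbb2 was also printed 10 times per array. Its processed signal before scaling ran from 769 to 908 over the knockout spots and from 662 to 769 over the hetero spots, and the log2 SD between spots of an array was 0.048. The spots of the genotypes did not overlap before scaling, with the knockout spots brighter, and the 75th percentile of all probes was higher as well, at 465 to 487 on knockout arrays against 404 to 416 on hetero arrays. With spike-in scaling Erbb2 was called higher, by 0.44 (adjusted p = 3.18e-05), beside a median of 0.39 for all genes.

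Erbb3, the neuregulin receptor of luminal cells, was well above background on 3 of 3 knockout arrays and on 0 of 3 hetero arrays. The dimmest probe well above background set the detection floor of an array. This floor was -5.86 to -5.30 on knockout arrays and -5.20 to -4.97 on hetero arrays, so detection reached lower on knockout arrays. The Erbb3 probe read -4.97, -5.28 and -4.16 in knockout spheres and -6.01, -5.98 and -7.20 in hetero spheres. All knockout values lay above all hetero values, but the spread within each group was 0.58 in knockout and 0.70 in hetero spheres (SD), against 0.01 to 0.05 for Frs2. By group means the signal was at least 1.24-fold higher in knockout spheres. Knockout replicate 2 alone (-5.28) lay below the detection floor of each hetero array, so this lower bound does not hold array by array. For that bound each hetero array was given its detection floor (-5.20 to -4.97), the signal of its dimmest probe well above background, or the probe's own reading where that was higher. The fitted adjusted p was 0.0281. The call was lost with normexp background correction (log2 fold change 0.07, adjusted p = 0.533), whose offset exceeds the probe's processed signals of 2.82 to 26.8. The same held with the slide row of the array as a block (adjusted p = 0.0508) and with the replicate number as a block, given in the closing section. Without any 1 of the knockout arrays the probe failed the filter and has no fitted value. Erbb3 rose beside the luminal epithelial markers, and their part in its rise was not tested.

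Erbb4, the remaining receptor, was well above background on 0 of the 6 arrays. Its values were -7.56, -7.70 and -7.46 in knockout spheres and -7.40, -7.40 and -6.31 in hetero spheres. Both groups are below background, so no fold is given. With dim probes let in, its adjusted p was 0.253. Of the 4 receptors, then, 2 were well above background in both groups, 1 in knockout spheres alone and close to the floor, and 1 in neither.

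**Figure D2:**
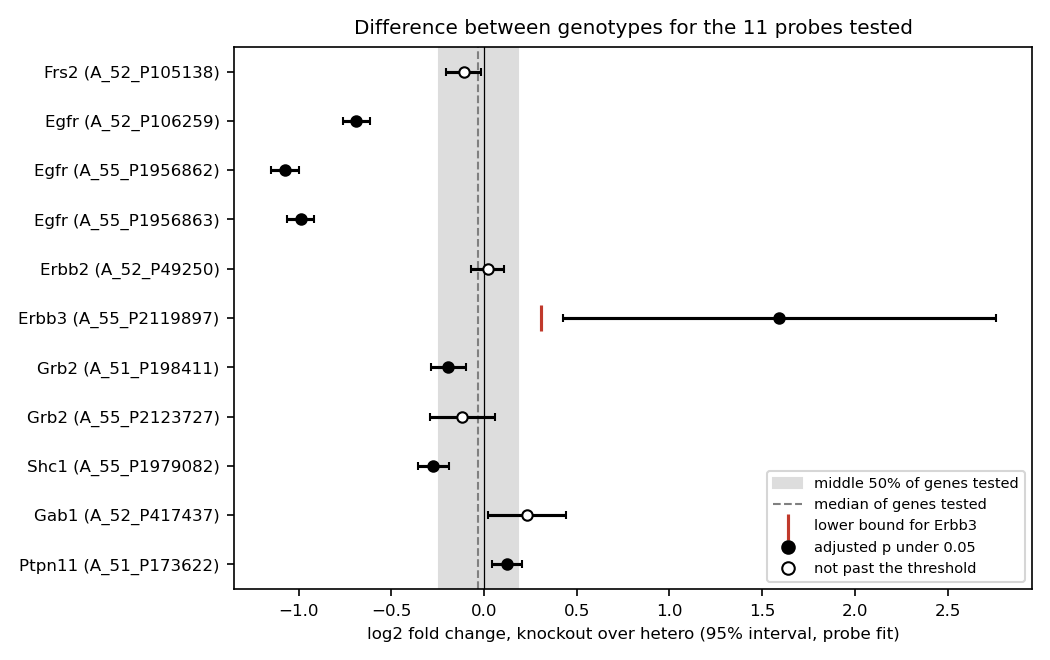
Log2 fold change, knockout over hetero (x axis), with 95% intervals, of the 11 probes tested, from the fit over all probes. Filled points passed an adjusted p of 0.05, the grey band holds the middle 50% of genes and the red bar is the lower bound for Erbb3. The Egfr probes lie between -1.07 and -0.69, and Erbb2, Gab1, Frs2 and the dimmer Grb2 probe did not pass in this fit. With spike-in scaling all values move up by 0.42, which turns the sign of Frs2, Grb2 and Shc1.

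Among the adaptors, Shc1 and Grb2 were lower in knockout spheres by small amounts, a direction that spike-in scaling turns. Shc1, whose protein links phosphorylated receptors to GRB2, read 4.49, 4.49 and 4.56 in knockout spheres and 4.79, 4.77 and 4.81 in hetero spheres. The groups did not overlap, and the log2 fold change was -0.27 ± 0.03 (SE, adjusted p = 0.000581), or 1.21-fold lower. It was 0.15 with spike-in scaling, still below the median of all genes. Grb2, which brings the RAS activator SOS to the membrane, was read by 2 probes. The brighter had 3.18, 3.20 and 3.22 in knockout spheres and 3.45, 3.35 and 3.38 in hetero spheres, a log2 fold change of -0.19 ± 0.03 (adjusted p = 0.00424), and 0.23 with spike-in scaling. The other had 0.10, -0.01 and -0.10 against 0.11, 0.04 and 0.19, groups that overlap, and its -0.12 ± 0.07 did not pass (adjusted p = 0.223 among all probes). The falls at the 2 probes differed by -0.07 with an exact permutation p of 0.6. With median scaling the Grb2 call was lost (adjusted p = 0.0889).

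Ptpn11 was higher in knockout spheres, and Gab1 missed the threshold. Ptpn11, which encodes SHP2, a phosphatase needed for full ERK activation by many receptors, read 5.44, 5.42 and 5.44 in knockout spheres and 5.33, 5.26 and 5.33 in hetero spheres, without overlap. The log2 fold change was 0.12 ± 0.03 (SE, adjusted p = 0.0121), or 1.09-fold higher. This call was lost with median scaling (adjusted p = 0.0834), and the change was 0.54 with spike-in scaling. Gab1, a docking protein that binds GRB2 and SHP2, read -0.84, -0.77 and -0.73 in knockout spheres and -1.06, -0.85 and -1.13 in hetero spheres. Every knockout array was higher than every hetero array, with knockout replicate 1 and hetero replicate 2 nearest to each other. The log2 fold change was 0.23 ± 0.08 (SE, adjusted p = 0.0513), with a 95% interval of 0.03 to 0.44. The gene lay close to the threshold. It passed without hetero replicate 2 (0.32, adjusted p = 0.00591), with the filter on all 6 arrays (adjusted p = 0.0413), in the deposited table (0.24, adjusted p = 0.0499) and with spike-in scaling (0.65, adjusted p = 0.000607). Without any other single array it did not pass (adjusted p 0.0716 to 0.132), nor did it under the remaining settings.

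**Figure D3:**
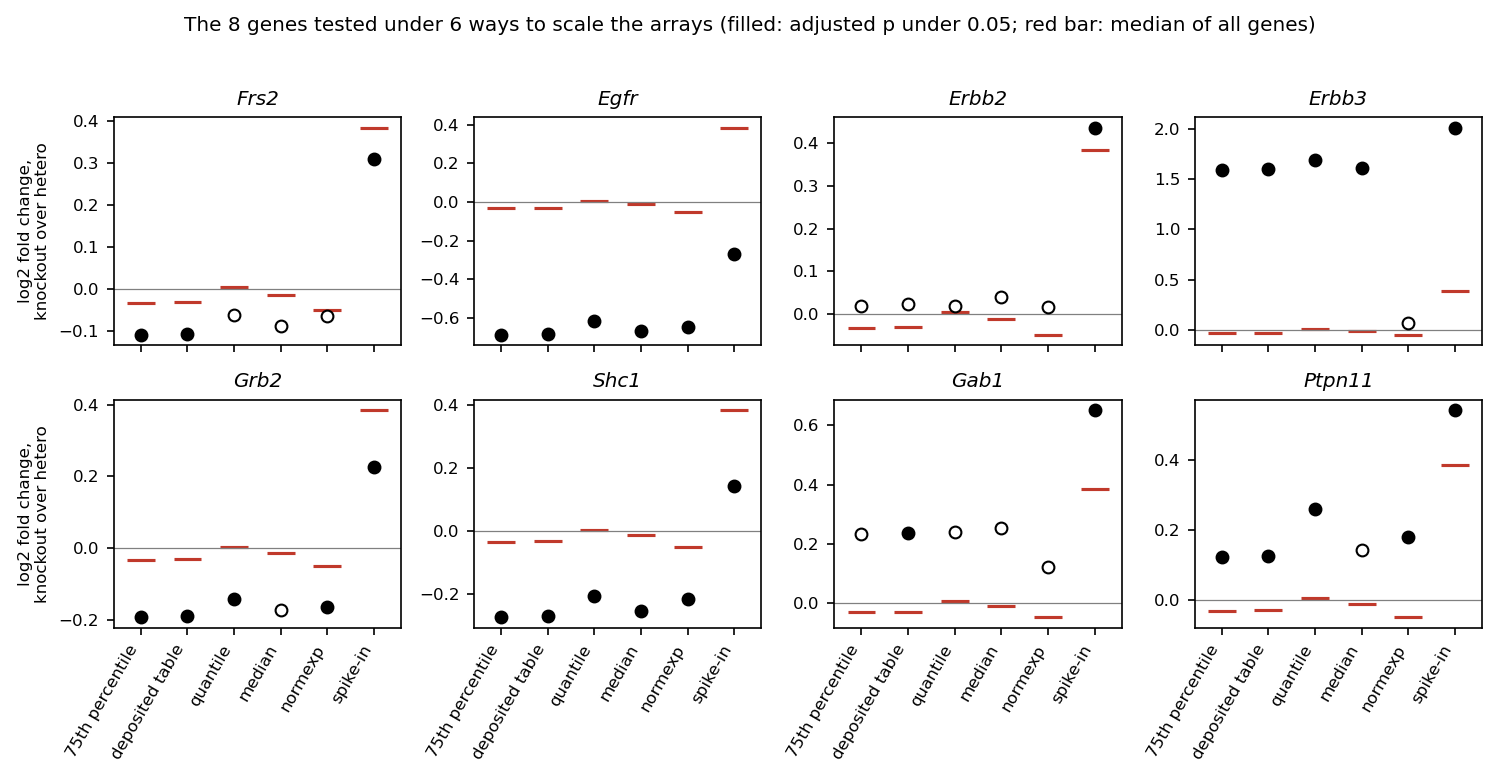
Log2 fold change, knockout over hetero (y axis, each panel on its own scale), of the 8 genes tested under 6 ways of scaling or background correction (x axis). Filled points passed an adjusted p of 0.05, and red bars give the median of all genes under the same setting. Egfr stays below and Erbb3 above the red bar throughout, while Frs2, Grb2 and Shc1 change sign with spike-in scaling and stay below the bar.

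Spike-in scaling adds 1 constant to all genes, so the order of the members and their distance from the median of all genes are not moved by it. Egfr lay lowest, then Shc1, Grb2 and Frs2, with Erbb2, Ptpn11 and Gab1 above the median. The 95% intervals of Frs2 (-0.19 to -0.03) and Grb2 (-0.27 to -0.11) overlap, as do those of Ptpn11 (0.05 to 0.19) and Erbb2 (-0.06 to 0.10). Differences between neighbouring genes were not tested.

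The genes around the members were described through 6 lists. Of 11 ErbB ligand genes 10 were tested, and 7 were called higher and 2 lower in knockout spheres. Of the 7, Tgfa and Nrg2 were not above background on any hetero array and passed the filter through the knockout arrays alone, so the share called is not set against that of all genes. The median log2 fold change of the list was 0.78, and 0.58 with these 2 genes at their bounds. With the filter on all 6 arrays, which drops Tgfa and Nrg2, 7 ligand genes were called and the median was 0.40. At that setting 63.4% of all genes were called. With normexp 5 ligand genes were higher and 2 lower and the median was 0.18. Hbegf, the gene of the heparin-binding EGF-like factor, read 3.24, 3.20 and 3.22 in knockout spheres and 0.96, 1.07 and 0.96 in hetero spheres. It rose by 2.23 ± 0.04 (SE, adjusted p = 8.26e-07), the smallest p of the list. Areg, the gene of amphiregulin, the main EGFR ligand of the growing mammary duct, read -1.03, -0.96 and -0.99 in knockout spheres and -2.76, -2.64 and -2.48 in hetero spheres, and rose by 1.63 ± 0.08 (adjusted p = 2.54e-05). Epgn, the gene of epigen, rose by 1.03 ± 0.06 (adjusted p = 6.46e-05). Tgfa, the gene of transforming growth factor alpha, was at least 1.56-fold higher, with a fitted adjusted p of 3.57e-05 that was 0.532 with normexp.

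The remaining ligands were named after their values were seen. The neuregulin gene Nrg2 was at least 4.01-fold higher by the bound described at Erbb3. With normexp the log2 fold change of the Nrg2 probe was only 0.45, so this bound does not hold under that setting. Ereg and Btc, the genes of epiregulin and betacellulin, were called higher with log2 fold changes of 0.27 and 0.15. The 2 ligand genes called lower were Nrg1, a ligand of ERBB3 and ERBB4, with a log2 fold change of -0.97 (adjusted p = 0.000289), and Egf itself, with -0.14 (adjusted p = 0.0440). With spike-in scaling 9 ligand genes were called higher and 1 lower. With normexp, which shrinks dim probes, the log2 fold changes were 2.15 for Hbegf, 1.08 for Areg, 0.33 for Epgn and 0.03 for Tgfa. Without knockout replicate 2 the ligand calls numbered 5 of 8 tested, and 54.8% of all genes were called. Hbegf, Areg, Epgn and Tgfa, all genes of EGFR ligands, were higher on the same 3 knockout arrays on which Egfr was lower, beside epithelial markers that were higher. The part of the epithelial markers in the ligand changes was not tested.

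Other receptors known to bind FRS adaptors went both ways, with 2 of 8 tested genes higher and 4 lower (median -0.21). Ret, one of the 2, was not above background on any hetero array and passed the filter through the knockout arrays alone. The share called is therefore not set against that of all genes. With the filter on all 6 arrays, which drops Ret, 5 genes of the list were called, beside 63.4% of all genes. Ntrk2, the gene of a neurotrophin receptor, read 0.51, 0.46 and 0.58 in knockout spheres and 2.01, 2.04 and 2.01 in hetero spheres, and fell by 1.51 ± 0.04 (SE, adjusted p = 2.25e-06). Alk, a receptor tyrosine kinase gene, fell by 0.87 ± 0.10 (adjusted p = 0.000829), and by 0.56 with normexp. Fgfr1, whose protein is the best-known partner of FRS2alpha, had a log2 fold change of -0.25 ± 0.03 (adjusted p = 0.000645), a direction that spike-in scaling turns (0.17) and a call that quantile scaling ends (-0.08, adjusted p = 0.0561). Fgfr3 rose by 0.54 ± 0.07 (adjusted p = 0.00155), and by 0.23 with normexp. With spike-in scaling 4 were higher and 2 lower and the list's median was 0.21, below the 0.39 of all genes. Without knockout replicate 2 or 3 the calls numbered 4 of 7 tested, and 54.8% and 54.0% of all genes were called.

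**Figure D4:**
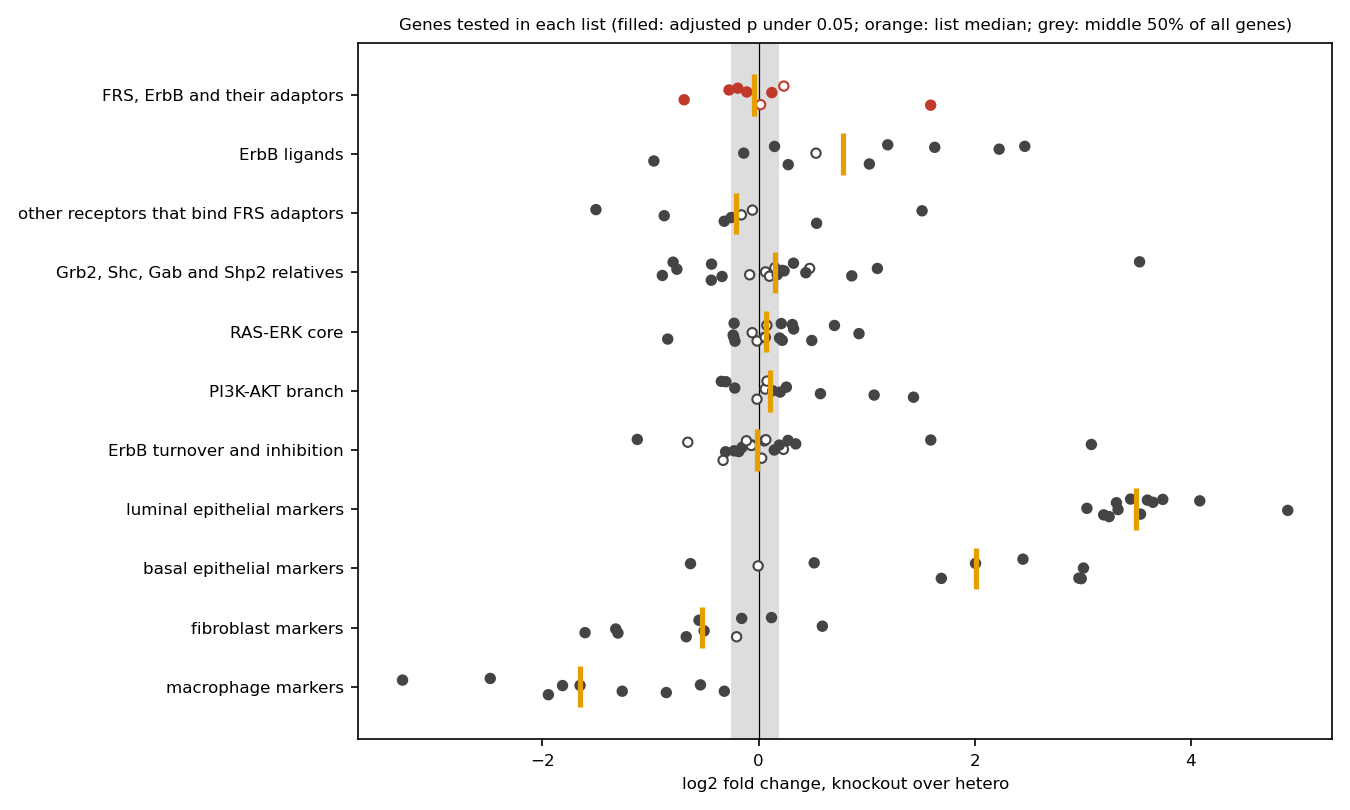
Log2 fold change, knockout over hetero (x axis), of the genes tested in the member list (red, top), the 6 pathway lists and 4 marker lists. Filled points passed an adjusted p of 0.05, orange bars are list medians and grey holds the middle 50% of all genes, with Erbb3, Tgfa, Nrg2 and Ret at fitted values although they were not above background on hetero arrays. The members' median of -0.04 lies within the grey band, and those of the ErbB ligands (0.78) and of the luminal (3.49) and basal (2.01) epithelial markers lie to its right. With spike-in scaling all points move right by 0.42.

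Relatives of the adaptors were called in 14 of 19 tested genes (73.7%, against 60.4% of all genes). Of these, 8 were higher and 6 lower (13 and 3 with spike-in scaling), and the median of the list was 0.15. Grb7, an ERBB2-binding adaptor gene that neighbours ERBB2 in humans, read 0.33, 0.33 and 0.37 in knockout spheres and -2.72, -3.27 and -3.55 in hetero spheres. It rose by 3.53 ± 0.21 (SE, adjusted p = 6.77e-05), and by 2.43 with normexp, while Erbb2 itself overlapped between the groups. Nck2, an adaptor that links receptors to the actin cytoskeleton, rose by 0.86 ± 0.03 (adjusted p = 1.11e-05). Grb10, a brake on insulin receptor signalling, fell by 0.79 ± 0.03 (adjusted p = 8.95e-06) and Dok2, a RAS-restraining docking protein of blood cells, by 0.89 ± 0.05 (adjusted p = 5.74e-05). Macrophage markers, lower in 9 of 9 genes (7 lower and 1 higher with spike-in scaling), moved in the direction of Dok2, and their part in it was not tested.

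In the RAS-ERK core 13 of 18 genes were called (72.2%, against 60.4% of all genes). Of these, 8 were higher and 5 lower (16 and 1 with spike-in scaling), and the median of the list was 0.07. Rps6ka1, the gene of the ERK-activated kinase RSK1, rose by 0.93 ± 0.04 (SE, adjusted p = 2.78e-05). Rasa1, a RAS-inactivating GTPase activator, rose by 0.70 ± 0.04 (adjusted p = 3.73e-05). Ksr1, a scaffold of RAF and MEK, fell by 0.84 ± 0.07 (adjusted p = 0.000291). With normexp the log2 fold change of this probe was -0.60, and the normexp fit over genes gave -0.33. In the PI3K-AKT branch 9 of 12 genes were called (75%, against 60.4% of all genes). Of these, 6 were higher and 3 lower (11 and 0 with spike-in scaling, 7 and 2 with quantile scaling). The median of that list was 0.10. Pik3cb, a catalytic subunit, rose by 1.07 ± 0.02 (adjusted p = 1.93e-06) and the regulatory subunit Pik3r3 by 0.57 ± 0.03 (adjusted p = 3.5e-05). Pik3r2 and Akt2 had log2 fold changes of -0.34 ± 0.02 and -0.30 ± 0.03, which became 0.07 and 0.12 with spike-in scaling. The other 5 genes named in these branches kept their sign under normexp and under quantile, median and spike-in scaling.

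Genes of ErbB turnover and inhibition were called in 11 of 20 (55.0%), 6 higher and 5 lower (17 and 1 with spike-in scaling, 7 and 3 with quantile scaling), with a median of -0.01, and the share called lay near that of all genes. Lrig3, a membrane protein gene of the LRIG family that modulates receptor tyrosine kinases, fell by 1.12 ± 0.02 (SE, adjusted p = 1.58e-06). Cblc, an epithelial member of the CBL ubiquitin ligases that mark EGFR for degradation, read 0.75, 0.73 and 0.64 in knockout spheres and -2.56, -2.37 and -2.21 in hetero spheres, and rose by 3.08 ± 0.09 (adjusted p = 5.53e-06). Ptprk, a receptor phosphatase that dephosphorylates EGFR, rose by 1.59 ± 0.08 (adjusted p = 3.65e-05), and by 0.91 with normexp. Eps15, an endocytic adaptor of EGFR, rose by 0.34 ± 0.03 (adjusted p = 0.000194). Cblc rose beside the luminal keratins, whose part in it was not tested.

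Genes with the most similar profile were found by the root mean square difference of the scaled log2 signal, centred on the gene's mean, over the 6 arrays. For Egfr these were Fam162a, with a difference of 0.0143 and a log2 fold change of -0.69, and Htra3, with 0.0144 and -0.67. In all 165 genes lay within 0.05 of Egfr. For Frs2 they were Magohb (0.00698) and Zkscan1 (0.00932), among 1471 genes within 0.05. For Erbb2 they were Abhd10 (0.0113) and Pdia5 (0.0118), among 1522. For Erbb3, read near background, the nearest were 5730403I07Rik (0.223) and Nudt11 (0.250), and 0 genes lay within 0.05.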

How the data were processed

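Cy3-labelled RNA of 6 sphere samples was read on 1-colour Agilent arrays, per the labels' protocols. The values used are linear spot intensities from the deposited scanner files, namely the processed signal, which had background subtracted by Agilent Feature Extraction 10.7.3.1, per the file headers and the submitters' processing notes. A deposited table of intensities for 46598 probes matches that signal after division by 1 number per array (402 to 484), within 1% for 100% of probes spotted once; its column medians run from 0.159 to 0.169, it is linear and not centred by gene.

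Each array held 62976 spots. Control spots (3671) and outlier-flagged spots (102 to 129) were left out, and no spot (0) was saturated. Spots of a probe were averaged on the log2 scale, and each array's 75th percentile was subtracted. Probes were named by RefSeq accession through a RefSeq gene table (GRCm38.p6); 27235 of 55681 had 1 symbol. Probes well above background on at least 3 of 6 arrays were kept (35422), and the brightest kept probe stood for its gene (15834 genes); the 3-array filter lets a probe in through 1 group, as with Erbb3. The test of genotype used limma 3.58.1 (lmFit, then eBayes) under R 4.3.3, without covariates, over all genes and again over all kept probes, with Benjamini-Hochberg adjustment and a threshold of 0.05. In simulated data for this comparison on 15834 genes, 0% of changes of 0.1, 40% of 0.25, 72% of 0.5 and 80% of 1 on the log2 scale were recovered. Only 50 genes were changed at each size, whereas 60.4% of genes were called in the real data. The adjusted threshold was therefore stricter in the simulation, and these rates do not carry over to the real fit. The number of arrays limits the precision. For a group not well above background on any array, a lower bound of the fold is given, computed as described at Erbb3.

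The 10 members are always named, with all their probes; of each pathway list up to 4 genes with the smallest p, of each marker list up to 3, and the 2 nearest profiles of each tested receptor or FRS adaptor. One gene that this rule names is not reported here. The members and lists were chosen with earlier results of these data known. The tried alternatives were 4 settings of background and scaling, filters, the deposited table, averaged probes, blocks and arrays left out. The normexp alternative used the median signal in place of the mean signal, which was not used here. All arrays shared 1 slide and 1 scan. Replicate 3 of both genotypes lay in the second slide row and replicates 1 and 2 in the first, while each slide column held 1 genotype, so column and genotype cannot be told apart.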

Additional observations from a re-analysis of the deposited data

How the results depend on the processing

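Across 16 alternatives Egfr stayed lower and past the threshold in all 16. Spike-in scaling turned Frs2 (0.31), Grb2 (0.23) and Shc1 (0.15) on the log2 scale. It gave 11484 higher and 1260 lower genes, so that 80.5% of all genes were called. It also gave 21349 higher and 1966 lower probes, 7 members higher and 1 lower, and 18 calls among turnover genes. Median scaling left 3 members called, 1 higher and 2 lower, while the share of all genes called fell from 60.4% to 44.8%. With normexp, and with the slide row as a block, 1 member was called higher, and Frs3 differed by -0.46 with normexp. Leaving out 1 array gave 1 to 3 members higher and 5 to 8 ligand genes called, the lowest ligand count without knockout replicate 2. These fits called 54.0% to 57.0% of all genes. Without any 1 knockout array Erbb3 failed the filter and has no value, as with the filter on all 6 arrays. The replicate numbers did not pair the arrays (correlations of deviations -0.115, -0.0174 and -0.00554). With the replicate block 8510 genes were called, against 9561 without it, and 1 member was higher, Erbb3 having an adjusted p of 0.0971 and Frs2 of 0.0716. Medians of the pathway lists moved by more than the spread in 36 cases and stayed within it in 60. The cause of these changes was not tested, except that leaving out a knockout array removes dim probes from the test. Signal over background limits Frs3, Erbb3 and Erbb4.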
